A study of Mus musculus with 4 samples.

Results

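The non-clustered delta protocadherins were examined in mouse medulloblastoma cells given a Smoothened inhibitor. The 8 genes were Pcdh1, Pcdh7, Pcdh8, Pcdh9, Pcdh10, Pcdh17, Pcdh18 and Pcdh20, found by gene symbol among the 55573 genes of the count table. All 4 libraries came from SmoWT neurospheres, cells of a Sonic Hedgehog-subtype medulloblastoma that arose spontaneously in Ptch1+/-, Trp53-/- mice on a C57BL/6 background. Ptch1 encodes the receptor that holds Smoothened in check, and both groups carry the same Ptch1 and Trp53 genotype. Of the libraries, 2 are from cells given DMSO as solvent control for 24 h and 2 from cells given 0.1 µM GDC0449 (vismodegib), which blocks Smoothened. Whether the 2 libraries of a group came from separate cultures or from 1 tumour line is not given in the sources used here, so p-values here reflect only how far these samples differ from each other, and that spread may be technical.

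Delta protocadherins are single-pass membrane proteins with cadherin repeats outside the cell. They bind mostly to copies of themselves on neighbouring cells, and in the developing nervous system they help sort neurons, steer migration and extend axons. Unlike the clustered protocadherins, each is made from its own gene. Pcdh1, Pcdh7 and Pcdh9 belong to the delta-1 group, whose tails carry a docking motif for protein phosphatase 1. Pcdh8, Pcdh10, Pcdh17 and Pcdh18 belong to the delta-2 group, of which several recruit the actin-regulating WAVE complex. Pcdh20 is usually placed outside both groups. In bulk RNA, fewer cells of a type and less RNA per cell cannot be told apart.

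Transcripts of 5 of the 8 genes were found in every library, and those of the other 3 were at or near 0. Pcdh18 carried most of the family's reads. The promoters of both sets were compared in RefSeq's table for GRCm38.p6, which held 7 of the 8 genes. The window was the 250 bases before the start site. The genes with reads in every library and an entry had 23 CpG dinucleotides (Pcdh18), 22 (Pcdh10), 21 (Pcdh17) and 18 (Pcdh9). The genes at 0 or 1 read had 11 (Pcdh8), 7 (Pcdh7) and 3 (Pcdh20). For Pcdh20 the bases just after this start were not found in the first part of an annotated transcript, so its window is uncertain. The Pcdh7 window, chr5:57717831-57718080, runs past the annotated start of the gene at 57717967. The Pcdh18 window, chr3:49757317-49757566 on the minus strand, likewise runs slightly past the annotated start of its gene at 49757325. Over 32851 promoters of the same length the median was 6, with quartiles of 2 and 16. The sets were formed by their reads, and a link between CpG count and level was not tested.

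Sequences are shown for the 4 detected genes and for Pcdh8, a gene with 0 reads, so that the CpG-rich windows can be set beside one from an unread gene. Capitals mark CCAAT, the letters of the box bound by NF-Y, on either strand (ATTGG on the other), and TATAAA, the TATA box, on either strand.
Pcdh18: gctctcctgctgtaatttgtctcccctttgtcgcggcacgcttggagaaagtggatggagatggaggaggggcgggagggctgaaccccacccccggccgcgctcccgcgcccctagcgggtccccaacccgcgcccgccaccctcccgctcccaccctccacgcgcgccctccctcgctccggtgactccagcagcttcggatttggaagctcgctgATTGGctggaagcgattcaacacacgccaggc
Pcdh10: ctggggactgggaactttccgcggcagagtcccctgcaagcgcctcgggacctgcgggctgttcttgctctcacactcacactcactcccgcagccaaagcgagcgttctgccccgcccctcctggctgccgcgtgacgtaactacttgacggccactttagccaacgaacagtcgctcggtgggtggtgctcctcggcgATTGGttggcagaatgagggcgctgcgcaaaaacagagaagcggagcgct
Pcdh9: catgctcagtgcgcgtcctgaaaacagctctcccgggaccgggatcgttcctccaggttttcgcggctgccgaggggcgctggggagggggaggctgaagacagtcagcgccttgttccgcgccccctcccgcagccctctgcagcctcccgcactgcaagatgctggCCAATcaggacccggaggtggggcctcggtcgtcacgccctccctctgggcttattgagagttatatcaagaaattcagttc
Pcdh17: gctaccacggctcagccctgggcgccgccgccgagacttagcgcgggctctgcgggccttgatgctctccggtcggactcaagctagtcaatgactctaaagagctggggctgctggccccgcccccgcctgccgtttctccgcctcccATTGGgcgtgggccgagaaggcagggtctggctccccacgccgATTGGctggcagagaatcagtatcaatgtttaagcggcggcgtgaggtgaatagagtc
Pcdh8: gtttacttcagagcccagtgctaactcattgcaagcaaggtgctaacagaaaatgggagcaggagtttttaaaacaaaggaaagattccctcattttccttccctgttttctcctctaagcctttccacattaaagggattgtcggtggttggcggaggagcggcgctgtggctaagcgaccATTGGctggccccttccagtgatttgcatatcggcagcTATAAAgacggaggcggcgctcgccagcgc
These windows lie at chr3:49757317-49757566 (minus strand), chr3:45378148-45378397 (plus strand), chr14:93890680-93890929 (minus strand), chr14:84443313-84443562 (plus strand) and chr14:79771313-79771562 (minus strand), in that order. For Pcdh9 the table holds a second start 10 bases downstream.

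CCAAT occurred in 6 of the 7 windows, against 33.9% of all promoters; this motif was chosen after the sequences were seen. The match lay 32 bases before the start in Pcdh18, 50 in Pcdh10, 58 and 101 in Pcdh17, 82 in Pcdh9 (the same site is 92 bases before its second start), 68 in Pcdh8 and 185 in Pcdh20. TATAAA occurred once, 30 bases before the start of Pcdh8, and 12.4% of all promoters hold it. The Gli motif GACCACCCA, which 0.225% of promoters hold, and the E-box CAGCTG, which 13% hold, were in 0 of the 7 windows. None of these motifs overlapped another there. No match says only that these letters are not in these 250 bases.

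Levels between genes were compared per length, as RPKM computed from the counts, that is reads scaled to the kilobases of merged exons and to the library's reads in genes. Pcdh18 was the most abundant at 3.25 to 5.21 RPKM over the 4 libraries, near the middle of the 16074 detected protein-coding genes (percentile 50.1). By counts Pcdh9 followed at 0.535 to 0.925 RPKM and Pcdh10 at 0.231 to 0.384 RPKM; by the deposited FPKM Pcdh10 was above Pcdh9 in all libraries but GDC0449 replicate 1. Pcdh1 (0.0209 to 0.121 RPKM) and Pcdh17 (0.0344 to 0.0669 RPKM) overlapped each other, so their order was not resolved. The ranges of the first 3 did not overlap, although group differences are part of these ranges.

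In reads, Pcdh18 made up 68.5% of the 575 reads of the 8 genes in DMSO replicate 1, with an exact 95% binomial interval of 64.6 to 72.3%. Its share was 64.6% of 441 reads in DMSO replicate 2 (60.0 to 69.1%), 64.6% of 782 in GDC0449 replicate 1 (61.1 to 67.9%) and 67.2% of 861 in GDC0449 replicate 2 (64.0 to 70.4%). The shares of the 2 groups overlapped. These intervals and the detection limits below cover counting error only.

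In GDC0449 against DMSO, 1 of the 8 genes was called: Pcdh1, a very scarce transcript. The thresholds for a call are 0.05 on edgeR's adjusted p and 1.5 on the fold in either direction, and 8.68% of the 15472 genes tested were called higher by it. Pcdh18 passed the adjusted p but not the fold threshold, and Pcdh9, Pcdh10 and Pcdh17 passed neither. With the low-count filter at 5 CPM, Pcdh9 (edgeR adjusted p = 0.0447) and Pcdh10 (0.0402) passed the adjusted p but not the fold threshold. None of the 8 was called lower, against 3.85% of all genes tested (DESeq2 and limma-voom called 0 lower too). In each of the 5 genes tested both GDC0449 libraries lay above both DMSO libraries, as in 33.6% of all genes tested. That count supports nothing further: Pcdh1 (0 DMSO libraries over the filter's level) and Pcdh17 (1 DMSO library over it) passed the filter on low counts only with the help of the GDC0449 libraries, and the filter removed Pcdh7, Pcdh8 and Pcdh20.

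**Figure D1:**
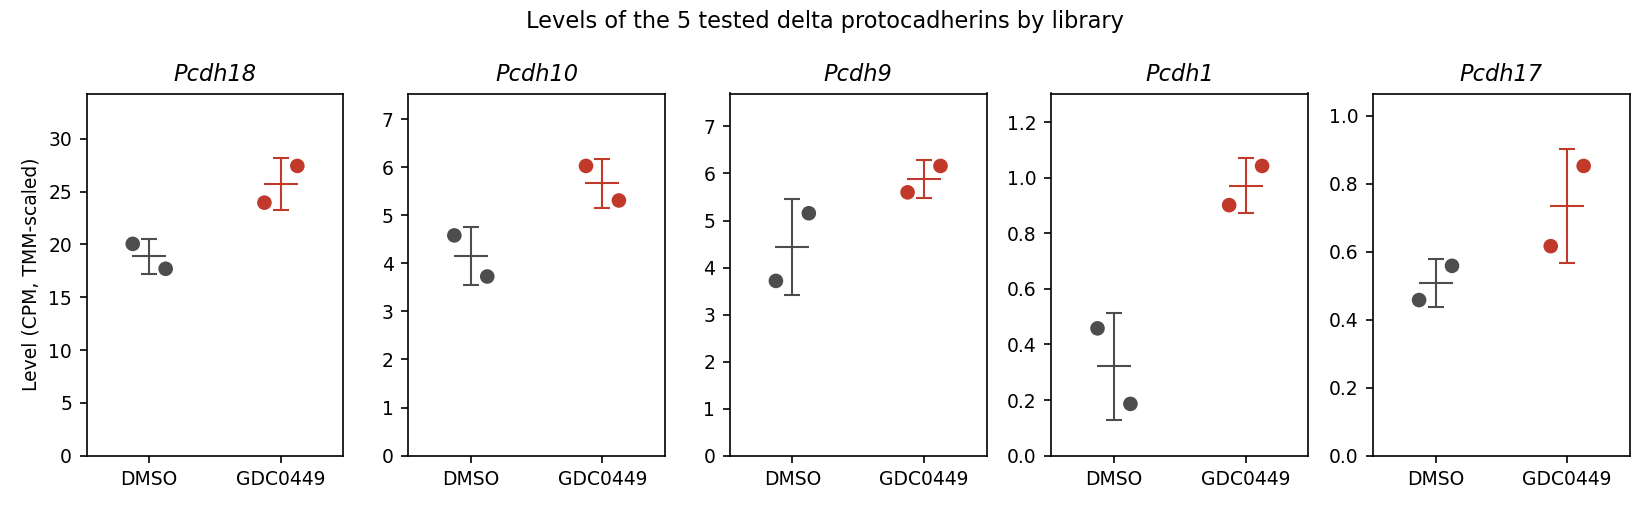
Level of each tested delta protocadherin (CPM, TMM-scaled; each panel has its own axis from 0) in the 2 DMSO libraries (grey) and the 2 GDC0449 libraries (red), with replicate 1 on the left of each pair; bars are mean and SD. In all 5 panels both red points lie above both grey points, from 25.7 CPM on average for Pcdh18 in GDC0449 down to 0.322 CPM for Pcdh1 in DMSO.

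Among the delta-1 genes, Pcdh1 encodes an adhesion protein best known from airway epithelium, whose tail binds Smad3. With DMSO it had 9 and 3 reads, with GDC0449 19 and 22. As CPM, reads scaled to TMM-adjusted library size, these were 0.458 and 0.186, then 0.901 and 1.04. Both treated libraries were high, and DMSO replicate 2 was the lowest. Pcdh1 rose 2.86-fold (95% interval 1.42 to 5.75; log2 fold change 1.52, SE 0.50; edgeR adjusted p = 0.0140). It reached the filter's 0.490 CPM in 2 libraries, both GDC0449, so it entered the test only through the group where it was high.

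The Pcdh1 call did not hold without DMSO replicate 1 (log2 fold change 2.34), DMSO replicate 2 (1.07) or GDC0449 replicate 2 (1.41). It held without GDC0449 replicate 1 (1.62). With no low-count filter it did not hold (1.51, edgeR adjusted p = 0.126). That setting also raised the edgeR adjusted p of Pcdh15, another non-clustered protocadherin, from 2.26e-12 to 0.00637. Over the 12 alternatives that gave Pcdh1 a value the adjusted p ran from 0.00719 to 0.285. The highest was from limma on log2(FPKM + 1), where Pcdh1 could not have passed the fold threshold, as its FPKM was at most 0.160. DESeq2 gave no adjusted p for it. With a library left out, 1 group has a single library, which is assumed to vary like the pair in the other group. The p-values there also reflect the smaller design. Pcdh15 stayed called, at log2 fold changes of 0.77 and 0.82 without DMSO replicate 1 and 2. Without GDC0449 replicate 1 or 2 its value was 0.80. From the reads summed per group, scaled to library totals, the Pcdh1 ratio was 3.0, with a 95% counting interval of 1.55 to 6.27. The gene lies on chromosome 18, 38185914 to 38212053 (GRCm38).

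Another scarce transcript that rose beside Pcdh1 was the endothelial marker Pecam1, with 2 and 5 reads in DMSO and 11 and 17 in GDC0449. It too reached the filter's 0.490 CPM only in the 2 GDC0449 libraries. Of the other endothelial markers, Cdh5 and Kdr had 0 reads in every library and Cldn5 had 2, both in DMSO replicate 2, and the summed level of the list was 0.102 to 0.435 CPM in DMSO and 0.522 to 0.806 CPM in GDC0449. Their part in the Pcdh1 result was not tested.

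Pcdh9, a delta-1 gene of neurons that spans 877270 bases of chromosome 14 (93013410 to 93890679), had 73 and 83 reads in DMSO and 118 and 130 in GDC0449. Its levels were 3.72 and 5.15 CPM in DMSO and 5.60 and 6.16 CPM in GDC0449, and DMSO replicate 2 lay closer to the treated libraries than to the other control. The fold change was 1.34 (95% interval 1.03 to 1.76; edgeR adjusted p = 0.0800). The interval leaves room for a fold change on either side of the 1.5 threshold. Its log2 fold change of 0.43 fell to 0.19 without DMSO replicate 1 and was 0.65 without DMSO replicate 2.

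Pcdh7, the third delta-1 gene, known from neural fold and retinal axon development, was at 0 reads in all 4 libraries. These libraries hold 77944561 reads in genes together, so a limit of 3 reads corresponds to 0.0385 CPM, or 0.00363 RPKM. Its span is chromosome 5, 57717967 to 58133230. Of its exonic bases 21.1% are shared with an opposite-strand gene, 4932441J04Rik, which also had 0 reads. A strand setting is not given, and reads falling in shared bases could have been left out as ambiguous.

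Among the delta-2 genes, Pcdh18 was the only one over 10 CPM. Its protein is known to bind Dab1, an adaptor of the Reelin pathway. It had 394 and 285 reads in DMSO and 505 and 579 in GDC0449, or 20.1 and 17.7 CPM against 24.0 and 27.4 CPM. Both treated libraries lay above both controls, and DMSO replicate 2 was the lowest. The mean was 18.9 ± 1.67 CPM in DMSO and 25.7 ± 2.46 CPM in GDC0449 (SD, n = 2), a fold change of 1.36 (95% interval 1.17 to 1.57; log2 0.44, SE 0.10; edgeR adjusted p = 6.46e-04). It therefore passed the adjusted p, which 18.1% of genes did upward, and stayed under the fold threshold.

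The log2 fold change of Pcdh18 lay between 0.33 and 0.54 in all 14 alternatives. Its edgeR adjusted p was above 0.05 without DMSO replicate 1, DMSO replicate 2 or GDC0449 replicate 2, which are smaller designs. The log2 fold changes there were 0.54, 0.35 and 0.34. With no low-count filter the edgeR adjusted p was 0.116, a setting that raised that of Pcdh15 too. The lowest, with edgeR and a replicate block, was 9.96e-06. Pcdh18 lies on chromosome 3, 49743296 to 49757325, and no annotated gene overlaps it.

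Pcdh10, which recruits the WAVE complex in growing axons and is often silenced by promoter methylation in human tumours, was at 4.58 and 3.73 CPM in DMSO and 6.03 and 5.31 CPM in GDC0449. These levels rest on 90, 60, 127 and 112 reads. The treated libraries were higher by 1.35-fold (95% interval 1.03 to 1.77), with an edgeR adjusted p of 0.0748. Its log2 fold change of 0.43 was 0.60 without DMSO replicate 1 and 0.30 without DMSO replicate 2. It lies on chromosome 3, 45378398 to 45435623, on the same chromosome as Pcdh18.

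Pcdh17, another WAVE-recruiting member, had 9 and 9 reads in DMSO and 13 and 18 in GDC0449, or 0.458 and 0.559 CPM against 0.617 and 0.853 CPM. Its fold change of 1.45 had a 95% interval of 0.747 to 2.83 (edgeR adjusted p = 0.410), so a difference was not detectable at this depth, and a rise of over 1.5-fold lies within the interval. It lies on chromosome 14, 84443563 to 84539002.

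Pcdh8, also called arcadlin, is induced by neuronal activity and drives removal of N-cadherin from synapses. It had 0 reads in each library, which allows up to 0.00848 RPKM. Gm9748, an opposite-strand gene that shares 9.61% of its exonic bases, had 2 reads, both in DMSO replicate 2. Pcdh8 spans chromosome 14, 79766775 to 79771312.

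Pcdh20, known from olfactory neurons, had 1 read in all, in DMSO replicate 2. It lies on chromosome 14, 88464743 to 88471396. No fold change is given for Pcdh7, Pcdh8 or Pcdh20, since the low-count filter removed them. Both groups were also under the floor of 3 reads.

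**Figure D2:**
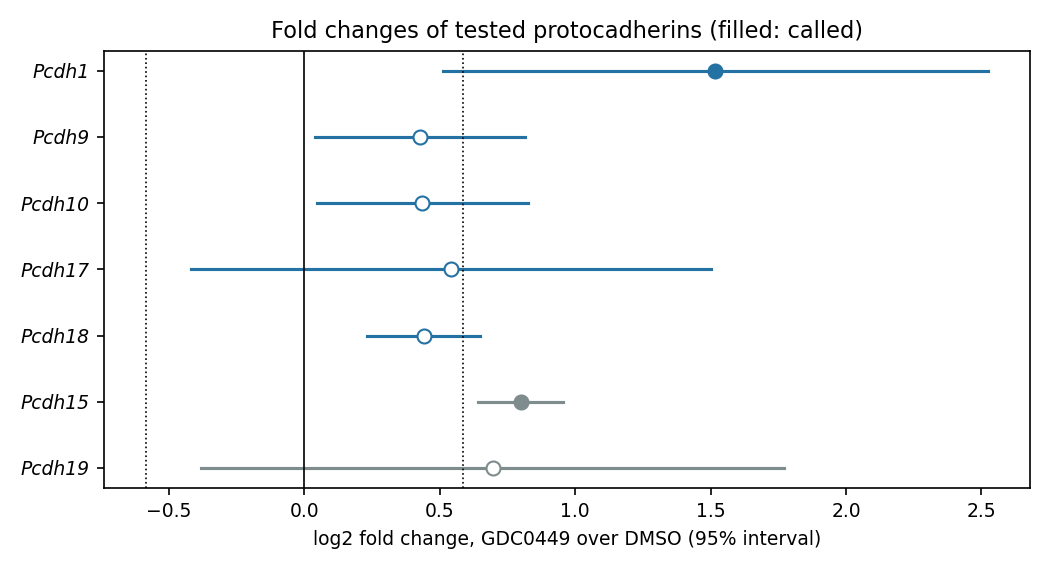
Log2 fold change of GDC0449 over DMSO with its 95% interval for the 5 tested delta protocadherins (blue) and 2 other tested protocadherins (grey); filled points are called and dotted lines mark 1.5-fold. The estimates of Pcdh9, Pcdh10 and Pcdh18 lie between 0.43 and 0.44, Pcdh1 at 1.52 has a wide interval, and that of Pcdh17 spans 0.

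The 3 members with the most reads had log2 fold changes of 0.44 (Pcdh18, SE 0.10), 0.43 (Pcdh10, SE 0.19) and 0.43 (Pcdh9, SE 0.19), of which only the first passed the adjusted p. The differences among them were not tested, and without DMSO replicate 1 the values were 0.54, 0.60 and 0.19. The median over the 5 tested genes was 0.44, the value of Pcdh18 itself, against 0.01 over all genes tested. Pcdh1 and Pcdh17 are among the 5 and passed the low-count filter only with the help of the GDC0449 libraries. This median therefore says nothing about the family as a group. The summed level of the 8 genes was 29.3 and 27.4 CPM in DMSO and 37.1 and 40.8 CPM in GDC0449. Pcdh18 made up most of this sum, so the sum is largely its level.

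The deposited FPKM values of Pcdh9 followed another order than its counts. They were 0.0241 and 0.0603 in DMSO and 0.714 and 0.0408 in GDC0449. Only GDC0449 replicate 1 was high, while RPKM from the counts was 0.535, 0.749, 0.837 and 0.925 in the same order. The RPKM exceeded the FPKM 22.2-fold, 12.4-fold, 1.17-fold and 22.7-fold in the 4 libraries. For Pcdh18 that ratio was 1.38 to 1.48.

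For Pcdh10 the FPKM was 0.174 and 0.449 in DMSO and 0.577 and 0.523 in GDC0449. There DMSO replicate 1 was the low library, whereas by counts it was DMSO replicate 2. Pcdh7 was listed at 0.000110 to 0.000469 FPKM although it had 0 reads. Across the series, 546 genes without a single read were listed at 1 FPKM or more in every library. On log2(FPKM + 1) none of the 8 genes was called, and the adjusted p of Pcdh18 was 0.131 with limma. Pcdh1, with an FPKM of at most 0.160, could not have passed the fold threshold on that scale. Neither the tool nor the gene models behind the FPKM values are stated.

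**Figure D3:**
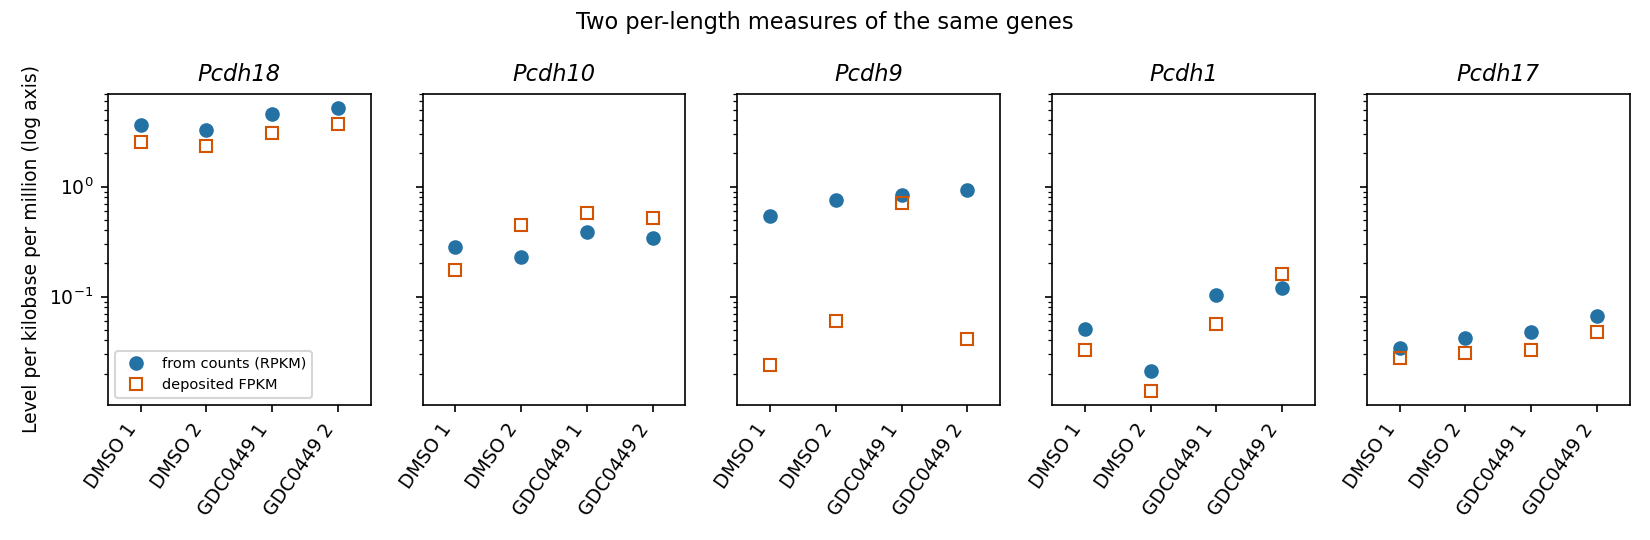
Level per length (RPKM or FPKM, log axis) in each library, from the counts (blue circles) and as the authors deposited it (orange squares). The measures run in parallel for Pcdh18 and Pcdh17, and for Pcdh9 the deposited value is far below the count-based one in 3 of 4 libraries (0.0241 against 0.535 in DMSO replicate 1).

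Among 4 other non-clustered protocadherins, Pcdh15 rose and the rest were scarce. Pcdh15, part of the tip link of inner ear hair cells, had 37.8 and 39.4 CPM in DMSO and 67.0 and 67.1 CPM in GDC0449. The replicates lay close together and the groups far apart, at 1.74-fold (95% interval 1.56 to 1.94; edgeR adjusted p = 2.26e-12). Per length it stood below Pcdh18, at 1.55 to 2.87 RPKM. On log2(FPKM + 1) its adjusted p was 0.0710 with limma.

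Pcdh19, the delta-2 gene of an X-linked epilepsy, had 6 and 7 reads in DMSO and 11 and 14 in GDC0449 (fold change 1.62, 95% interval 0.767 to 3.42; edgeR adjusted p = 0.335). The delta-1 gene Pcdh11x had 1, 5, 4 and 8 reads and the vascular gene Pcdh12 0, 1, 0 and 1, and neither was tested. Pcdh19 reached the filter's level only in the 2 GDC0449 libraries, so it too was tested through the group where it was high.

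Of 9 genes of the WAVE complex, 1 rose and none fell with edgeR (2 had an adjusted p below 0.05 in the downward direction, and DESeq2 called 0 lower). Over all genes tested 8.68% were called higher and 3.85% lower, so the count is near the background. Cyfip2, a subunit that binds the receptor motif and restrains the complex, went from 50.2 and 51.5 CPM in DMSO to 80.8 and 74.4 CPM in GDC0449. That is 1.53-fold (95% interval 1.37 to 1.69; edgeR adjusted p = 2.25e-09), just over the threshold, and without GDC0449 replicate 1 or on log2(FPKM + 1) it lay under it. The list's median log2 fold change was -0.02, against 0.01 for all genes tested. Its summed level was 1007 and 1013 CPM in DMSO and 995 and 987 CPM in GDC0449.

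Of 11 other genes whose products bind or act with delta protocadherins, 10 were tested, 1 rose and 1 fell, with a median log2 fold change of 0.08. Against 8.68% and 3.85% of all genes tested, these counts are near the background and say nothing about the partners as a group. Dab1, the adaptor that binds Pcdh18, went from 11.2 and 11.4 CPM to 24.8 and 24.5 CPM, 2.18-fold higher (95% interval 1.86 to 2.55; edgeR adjusted p = 4.75e-12). Replicates lay close together within each group. On log2(FPKM + 1) Dab1 was not called (limma adjusted p = 0.0869).

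Smad3, the transcription factor that the Pcdh1 tail binds, went the other way, from 58.3 and 57.8 CPM to 30.9 and 30.7 CPM, 1.89-fold lower (edgeR adjusted p = 9.36e-14). It was called lower in all 14 alternatives. Cdh2, which encodes N-cadherin, a membrane partner of several delta-2 proteins, had 1 read in all, in DMSO replicate 2; it is named here after its value was seen. Its deposited FPKM was 0.00337 in that library and 0 in the others. A low value in this table does not show that the gene is silent.

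The distance from a delta protocadherin to the nearest protein-coding gene on a side ran from 38.2 kb (Pcdh1) to 4542 kb (Pcdh9 and Pcdh20, each other's neighbour). Pcdh8, Pcdh17, Pcdh20 and Pcdh9 lie in that order within 14.1 Mb of chromosome 14, a stretch with 7 protein-coding genes including these 4. Of the 7, 4 were tested and 0 were called by edgeR. Among the neighbours, Diaph3, a formin that builds actin filaments, was at 34.2 and 34.7 CPM in DMSO and 26.0 and 28.3 CPM in GDC0449, a log2 fold change of -0.34 (edgeR adjusted p = 0.00220, under the fold threshold). Tdrd3, before Pcdh20, had a log2 fold change of 0.05.

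Pcdh10 and Pcdh18 lie within 4.38 Mb of chromosome 3, with Pabpc4l, at 0 reads, between them. The nearest gene on the other side of Pcdh18, at 135 kb, was Slc7a11, a cystine transporter. It fell from 67.3 and 72.7 CPM to 26.0 and 23.2 CPM, 2.85-fold (edgeR adjusted p = 1.72e-21), while Pcdh18 was higher in GDC0449. Dele1, 38.2 kb from Pcdh1, had a log2 fold change of -0.19 (edgeR adjusted p = 0.0508), and Arap3, on its other side, had 4 to 13 reads.

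**Figure D4:**
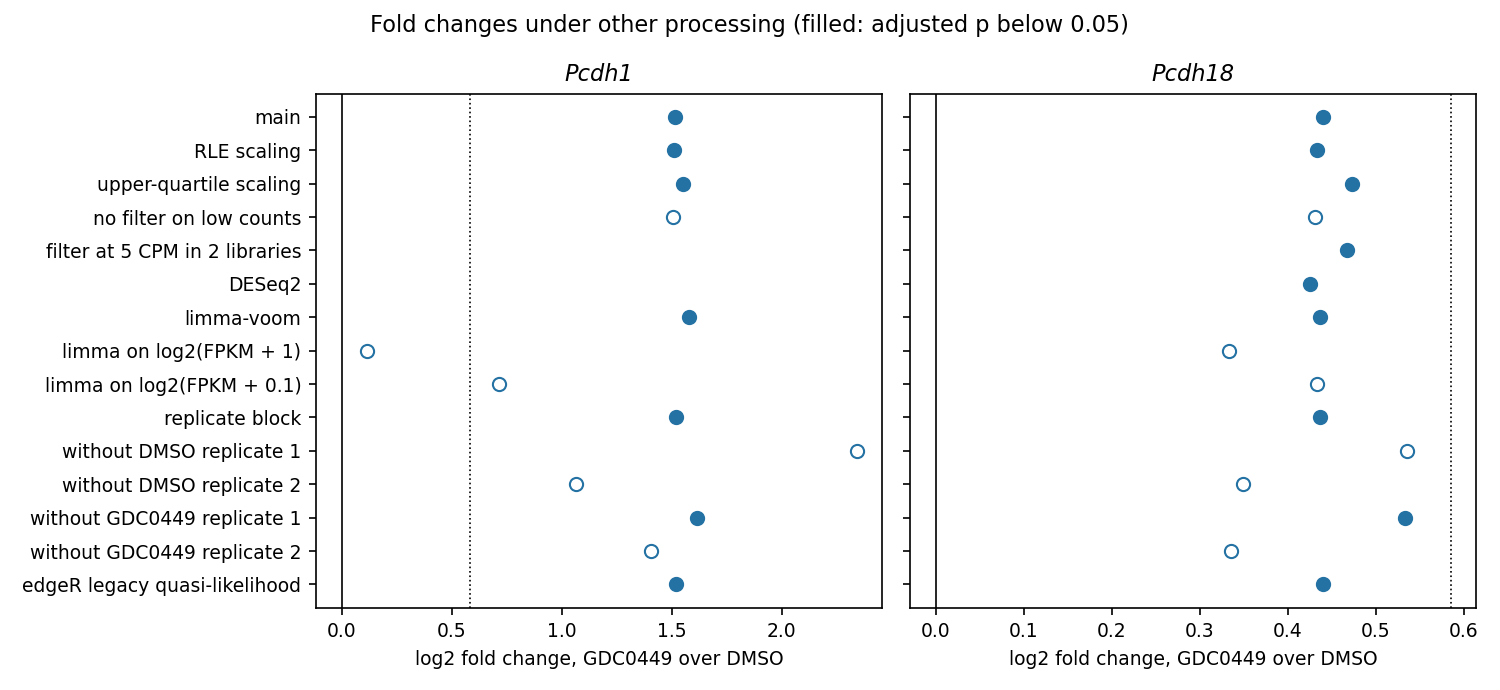
Log2 fold change of Pcdh1 and Pcdh18 under each processing alternative, filled where the adjusted p is below 0.05; the dotted line marks 1.5-fold, and a row with no point for Pcdh1 gave it no test (5 CPM filter) or no adjusted p (DESeq2). Pcdh1 runs from 0.11 to 2.34 and Pcdh18 from 0.33 to 0.54, always under the dotted line. The 0.11 is from log2(FPKM + 1), where Pcdh1 could not have reached the dotted line.

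The libraries held 16329721 to 20790030 reads in genes. More genes had reads in GDC0449 (23821 and 23780) than in DMSO (22685 and 22309), although DMSO replicate 1, at 20113419 reads, was nearly as deep. Reads in no annotated feature were 14.3% and 14.4% in GDC0449 and 12.3% and 13.2% in DMSO. The part of these library-wide differences in the rises of scarce genes was not tested. Hedgehog targets answered the inhibitor in all 4 genes listed, with a summed level of 485 to 514 CPM in DMSO and 72.6 to 84.1 CPM in GDC0449. Of the 5 granule lineage markers Atoh1 and Neurod1 rose 1.76-fold and 1.81-fold, Zic1 (log2 fold change 0.24) and Pax6 (-0.19, edgeR adjusted p = 0.0450) were under the fold threshold, and the list summed to 769 to 783 CPM in DMSO and 968 to 1033 CPM in GDC0449; Barhl1 had 4 to 10 reads. Markers of interneurons were at 0 in all 5 genes, and Purkinje cell markers in 3 of 4. Microglia markers summed to 0.664 to 1.49 CPM, and fibroblast and mural markers to 1.71 to 2.34 CPM. Of the 3 fibroblast and mural markers tested, only Pdgfrb was called, lower in GDC0449. The median log2 fold change of these 3 was 0.56, so the others went the other way without a call. Of the astrocyte markers Aqp4 and Aldh1l1 were at 0, and the list summed to 73.0 to 80.5 CPM, nearly all Slc1a3. Of the oligodendrocyte markers Olig1 was at 0 and Olig2 and Sox10 had 2 reads each, while Mbp was at 51.7 ± 0.00831 and 68.9 ± 1.32 CPM (SD, n = 2); the list summed to 62.5 to 62.7 CPM in DMSO and 78.2 to 78.7 CPM in GDC0449. The part of these lists in the protocadherin values was not tested.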

How the data were processed

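RNA of 4 libraries was sequenced. Per the submitters' processing notes and the series' design text, reads were trimmed with Trim Galore, mapped to mm10 with HISAT2 and counted per gene with HTSeq 0.11.1; DESeq2 1.26.0 is named there for their differential expression. In the deposited table each library has a column of unnormalized counts and one of FPKM, which the authors derived from mapped reads with gene length and depth taken into account, per the design text. Neither the annotation nor the strand setting or FPKM tool is stated. Entries that name no gene (5 HTSeq classes and 1 stray header) held 27.7% to 29.8% of reads and were left out. Symbols, exon lengths and positions came from GENCODE M21 (GRCm38), which held 55480 of 55573 identifiers.

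The test on the counts was the quasi-likelihood test of edgeR 4.0.16 (R 4.3.3) after TMM normalization and filterByExpr, with group as the only term and Benjamini-Hochberg adjustment over all genes tested. The thresholds, 1.5-fold and 0.05, are those the series states. SEs were derived from the F statistic. The biological coefficient of variation was 4.82%. Replicates differed by more than sampling noise (chi-square per gene 3.95 in DMSO and 3.17 in GDC0449). The fit was tested on simulated data. Alternatives were other scalings and filters, DESeq2 1.42.0, limma 3.58.1 (voom, and log2 of the deposited FPKM plus 1 or 0.1), a replicate block, each library left out, no fold threshold and, added after seeing the data, edgeR's legacy quasi-likelihood fit. The members and lists were chosen with earlier results of these data known. Named genes are all 8 members, all 4 other non-clustered protocadherins, called or lowest-p genes of the lists, markers at 0 and the nearest protein-coding neighbours; of the lists with no called gene, and of the neighbours at or near 0, only some are given. The rule also asked for genes with a pattern like that of a called member of at least 1 CPM; 0 members met it.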

Additional observations from a re-analysis of the deposited data

How the results depend on the processing

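The 5 tested delta protocadherins were higher in GDC0449 in every alternative that gave a value. These alternatives reuse the same libraries, and Pcdh1 and Pcdh17 passed the filter only with the help of the GDC0449 libraries. The shared direction is therefore no further support. The call of Pcdh1 is the one that did not hold. It was not tested with the filter at 5 CPM and had no adjusted p with DESeq2. With limma on log2(FPKM + 1) it could not have passed the fold threshold, as its FPKM was at most 0.160. In these settings, without a filter on low counts and with limma on log2(FPKM + 0.1), 0 members were called higher. Leaving out 1 library gave 0 to 1. Without the fold threshold, 2 members passed, and in the WAVE complex 2 genes were higher and 2 lower, and 3 partners lower. On log2(FPKM + 1) or + 0.1, 0 other protocadherins and 0 partners were called higher, and on log2(FPKM + 1) 0 WAVE genes; leaving out 1 library gave 0 to 1 WAVE genes higher. Over all genes, 1343 higher and 596 lower became 746 higher with no filter, 799 and 366 with the 5 CPM filter, 777 higher with DESeq2, 503 and 337 with log2(FPKM + 1), 804 higher with log2(FPKM + 0.1), 2794 and 2793 without the fold threshold, and 500 to 1221 higher and 351 to 605 lower without 1 library. The cause was not tested.

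Directions turned for genes close to 0. With upper-quartile scaling Wasf2, Abi2 and Mapk14 had log2 fold changes of 0.0098, 0.033 and 0.013, and with the 5 CPM filter 0.0042, 0.027 and 0.0076. Without 1 library in turn Wasf2 ran from -0.11 to 0.059, Mapk14 from -0.090 to 0.045, Abi1 from -0.022 to 0.13 and Abi2 from -0.051 to 0.043. On log2(FPKM + 1) and log2(FPKM + 0.1) Abi2 was at 0.089 and 0.095, and Evl at -0.62 and -0.63.

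Same-numbered replicates deviated together little (correlation 0.04). With so few libraries this cannot settle whether the numbers pair the samples. With the replicate block 1407 genes were higher and 615 lower, and 1 member was called higher. Depth limits Pcdh1 and Pcdh17, with 53 and 49 reads in all.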
